A study of Mus musculus with 3 samples.

Results

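The epithelial miRNAs described here are the 5 members of the miR-200 family (miR-200a, miR-200b, miR-200c, miR-141 and miR-429) together with miR-203 and miR-205. They were taken by name from the probes of a serum miRNA panel, 7 of 566 probes in all, by a rule that uses no measured value. The panel is the NanoString nCounter mouse miRNA assay, in which colour-coded probes bound to each miRNA are counted one by one, with no amplification step. The samples were 3 serum pools. In 2 of them the donor mice carried Tn+ tumours, and in the other they carried Tn- tumours. Tn is the short O-glycan that stays exposed on proteins when the sugar chain is not built further.

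Per the labels' protocols, female BALB/c mice aged 6 to 8 weeks on purchase received 100000 cells of the 4T1 line, a mouse mammary tumour line used to model triple-negative disease, in the right mammary fat pad number 4, and were killed on day 28. The Tn+ pools came from mice with tumours of 4T1/Tn+ cells, in which Cosmc, the chaperone needed to extend O-glycans, was targeted in exon 2 with CRISPR/Cas9. The Tn- pool came from mice with Tn- 4T1 tumours. The protocol states a minimum of 8 mice per group. The labels do not say whether the edited line is 1 clone, what the Tn- cells were treated with, how many animals went into a pool, or whether different animals gave the Tn+ pools, so any p-value measures only the spread between these pools. Cosmc itself is not measured by a miRNA panel, and the edit was not checked here.

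The miR-200 family is a defining set of epithelial cells. Its members repress Zeb1 and Zeb2, transcription factors that silence E-cadherin, and Zeb1 and Zeb2 in turn repress the miR-200 genes, so that the family and these factors mark opposite ends of the epithelial-to-mesenchymal transition. miR-205, enriched in basal epithelial cells of mammary gland, prostate and skin, also represses Zeb1 and Zeb2, and miR-203 restrains the progenitor factor p63 in stratified skin. Which cells release these miRNAs into serum is not recorded by the panel.

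The mature sequences are shown because the family falls into 2 seed groups, and the seed (bases 2 to 8, in capitals) sets which transcripts a miRNA pairs with. The deposited probe names carry no arm, and the arm printed is the one that the unstarred miRBase name stands for. All 7 matched a RefSeq entry (GRCm38.p6), and the table held no starred probe for any of them. The first 3 share the seed AAUACUG, the next 2 share AACACUG, and each of the last 2 has a seed of its own.
miR-200b: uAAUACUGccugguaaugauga
miR-200c: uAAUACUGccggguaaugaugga
miR-429: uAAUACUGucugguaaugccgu
miR-200a: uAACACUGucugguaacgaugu
miR-141: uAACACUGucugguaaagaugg
miR-203: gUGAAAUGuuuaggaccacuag
miR-205: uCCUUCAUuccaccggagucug

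The genes lie in 2 clusters and at 2 single sites of GRCm38.p6. The hairpins of miR-200b (chr4:156055681-156055750), miR-200a (chr4:156054896-156054985) and miR-429 (chr4:156053905-156053987) follow each other on the minus strand of chromosome 4, with 695 bases between the first 2 and 908 between the last 2. Those of miR-200c (chr6:124718322-124718390) and miR-141 (chr6:124717914-124717985) lie on the minus strand of chromosome 6, 336 bases apart. miR-203 lies alone on the plus strand of chromosome 12 (chr12:112130880-112130955) and miR-205 alone on the minus strand of chromosome 1 (chr1:193507463-193507530).

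Within the family the mature sequences are close. miR-200b and miR-200c matched at 20 of the 22 bases compared, and so did miR-200a and miR-141. miR-200b and miR-429, which have the same seed, matched at 18 of 22, with all 4 differences outside the seed. miR-203 and miR-205 matched each other at 3 of 22 bases and no family member at more than 9. Whether the probes of near-identical members share signal was not tested.

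**Figure D1:**
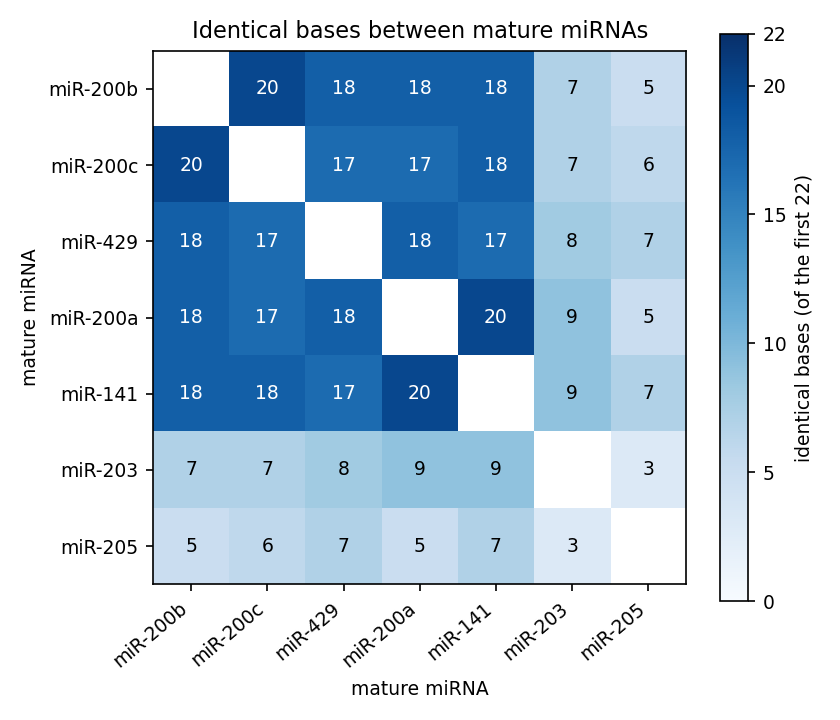
Identical bases between each pair of the 7 mature miRNAs, counted position by position from the 5′ end over the first 22 bases, with darker blue for more. The 5 miR-200 family members match each other at 17 to 20 bases, while miR-203 and miR-205 match any other member at 3 to 9.

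Values are the authors' normalized signal, in units that have no absolute meaning. In each pool most probes share the lowest deposited value, called the floor here, which was 1 in Tn+ pool 1 and 1.09 in Tn+ pool 2, against 1.08 in the Tn- pool. A probe at the floor has only a bound, and its miRNA is not shown to be absent. Above the floor, values rise in equal steps of 0.896, 1.09 and 1.08 units, and the lowest value above the floor was 1.67, 1.70 and 1.58 units. The pools differ in how many probes were measured, with 228 and 150 of 566 probes above the floor in the Tn+ pools, against 85 in the Tn- pool. The total signal was 59444 and 31977 units in the Tn+ pools, against 4204 units in the Tn- pool, and the Tn+ totals exceeded the Tn- total 14.1-fold and 7.61-fold.

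miR-205 was the member with the highest signal in both Tn+ pools and the only one above the floor in all 3 pools. miR-429 and miR-203 were measured in both Tn+ pools and not above the floor in the Tn- pool. miR-200b had the opposite pattern, measured in the Tn- pool and at the floor in each Tn+ pool. miR-200a, miR-200c and miR-141 were at the floor in every pool, so 3 of the 7 members gave no comparison. On this panel 307 of 566 probes (54.2%) were at the floor in every pool.

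**Figure D2:**
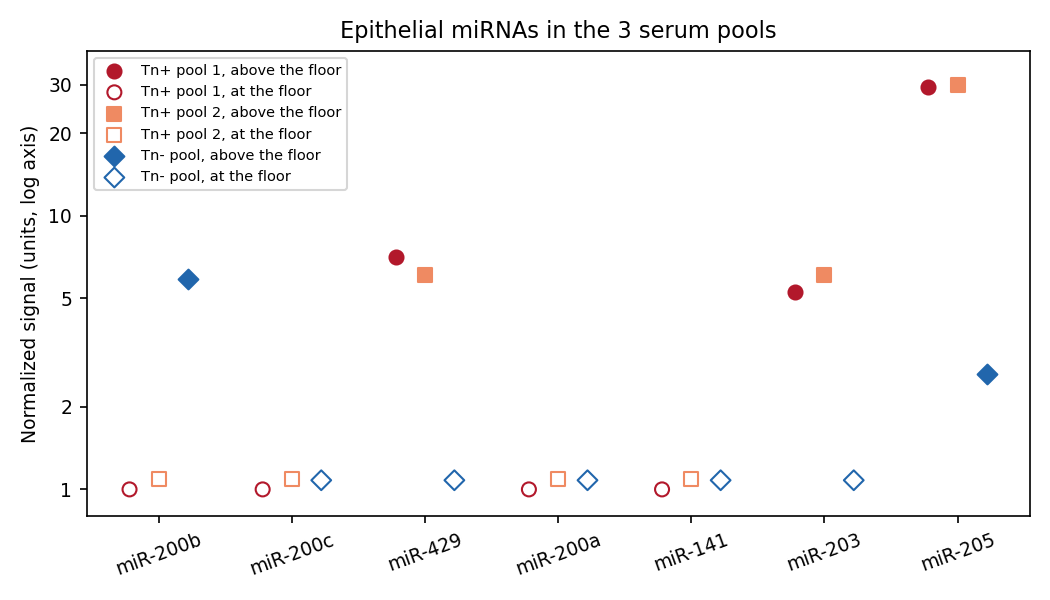
Normalized signal of the 7 miRNAs (log axis) in Tn+ pool 1 (circles), Tn+ pool 2 (squares) and the Tn- pool (diamonds), with filled symbols above the floor and open symbols at it. miR-205 reaches 29.4 and 30.0 units in the Tn+ pools against 2.65 in the Tn- pool, and miR-200b is the only member higher in the Tn- pool, at 5.89 units.

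For miR-205 (MIMAT0000238) the signal was 29.43 units in Tn+ pool 1 and 29.99 units in Tn+ pool 2, against 2.65 units in the Tn- pool. Both Tn+ pools were high and nearly equal, and both lay above the Tn- pool. That pool is 1 value, so the spread of Tn- serum is not known. On the deposited scale Tn+ pool 1 exceeded the Tn- pool 11.1-fold, and Tn+ pool 2 exceeded it 11.3-fold. The Tn- value is weak, only 1 step above the lowest value the pool could show, whereas the Tn+ values lie 31 and 26 steps above theirs. A Tn- value 1 step lower would give 18.7-fold and 19.1-fold, and 1 step higher 7.90-fold and 8.05-fold.

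In the Tn+ pools miR-205 lay among the better measured probes. There were 41 probes at or above its signal in Tn+ pool 1 and 39 in Tn+ pool 2 (7.24% and 6.89% of the panel), against 67 in the Tn- pool (11.8%). Probes differ in efficiency, so these ranks describe how well the probe was measured and not how abundant the miRNA is. The higher Tn+ pool exceeded the lower one 1.02-fold for miR-205. Among the 66 probes above the floor in both Tn+ pools with a Tn+ mean of 10 units or more, this was the closest pair, and the median difference was 2.22-fold.

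The higher miR-205 signal of the Tn+ pools came with a higher total signal. Against its 11.1-fold and 11.3-fold, the total was 14.1-fold and 7.61-fold higher in the Tn+ pools, and miR-16, an abundant red cell miRNA often used to scale serum data, was 14.8-fold and 8.55-fold higher. The total leans on 1 red cell probe. miR-451 alone held 43042.5 of 59444 units in Tn+ pool 1, 13159.2 of 31977 in Tn+ pool 2 and 1856 of 4204 in the Tn- pool. Over the 60 probes that exceeded the floor in every pool, the median was 2.99-fold and 3.63-fold, and 16 and 9 of the 60, miR-205 included, had a fold at or above that of miR-205. Relative to miR-16 in the same pool, miR-205 signal was 1.13% and 1.99% in Tn+ pools 1 and 2, against 1.505% in the Tn- pool. As deposited, the Tn- value thus lay between the Tn+ values, but 1 step in the Tn- signal of miR-205 changes that order. With that signal 1 step lower, the miR-205 folds (18.7 and 19.1) exceed those of miR-16, which puts the Tn- percentage below both Tn+ percentages. With it 1 step higher, the miR-205 folds (7.90 and 8.05) are under those of miR-16, which puts the Tn- percentage above both. Relative to miR-451 the deposited Tn- value again lay between, at 0.0684% and 0.228% in the Tn+ pools, against 0.143% in the Tn- pool. Relative to miR-486 it did so too, at 2.78% and 1.32% against 2.69%, but not with the Tn- signal 1 step higher. Relative to miR-223, abundant in myeloid cells and platelets, miR-205 was higher in both Tn+ pools, at 4.09% and 13.3%, against 1.94% in the Tn- pool. Relative to miR-21, a miRNA of tumours and myeloid cells, miR-205 was lower in both Tn+ pools, at 16.2% and 20.2% against 71.0% in the Tn- pool.

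miR-429 (MIMAT0001537), from the chromosome 4 cluster, had 7.05 units in Tn+ pool 1 and 6.06 units in Tn+ pool 2, against the floor in Tn- serum. These values are 6 and 4 steps above the lowest measurable value. Set against a signal of 3 whole steps in the Tn- pool (3.23 units, which is not 3 steps above its lowest value), the signal was 2.18-fold and 1.87-fold higher. These ratios cannot be taken as minima, because how background was removed is not given.

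miR-203 (MIMAT0000236) was close to miR-429 in value, with 5.26 units in Tn+ pool 1 and 6.06 units in Tn+ pool 2 and the floor in the Tn- pool. Each of its Tn+ values is 4 steps above the lowest measurable one, and the ratios to 3 whole steps in the Tn- pool (3.23 units) were 1.63-fold and 1.87-fold. In Tn+ pool 2 miR-203 and miR-429 had the same value. On the panel, 66 of 566 probes (11.7%) were above the floor in Tn+ pools 1 and 2 but not in the Tn- pool, and 27 of these 66 had a highest Tn+ signal no greater than that of miR-429.

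miR-200b (MIMAT0000233) had the floor value in each Tn+ pool and 5.89 units in the Tn- pool, 4 steps above the lowest value measurable there. Set against 3 whole steps in Tn+ pools 1 and 2 (2.69 and 3.26 units), the Tn- signal was 2.19-fold and 1.80-fold higher, against the direction of the total signal. As for miR-429, these ratios cannot be taken as minima. Only 7 of 566 probes (1.24%) exceeded the floor in Tn- serum and in no Tn+ pool, and miR-200b had the highest signal of the 7. The next were miR-743b-3p at 3.73 units and miR-380-5p and miR-682 at 2.65 units each, and miR-1893, miR-509-3p and miR-695 had 1.58 units. In the Tn- pool 39 probes had a signal at or above that of miR-200b. Of these 39, 37 were above the floor in both Tn+ pools, 1 in 1 Tn+ pool, and miR-200b in neither.

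The 3 miRNAs of the chromosome 4 cluster thus had 3 different patterns. miR-429 was measured only in Tn+ serum, miR-200b only in Tn- serum, and miR-200a, encoded between them, in no pool. The cluster lies on 1 strand within a short stretch. The hairpins of its outer members are shown with the mature arm in capitals, since these 2 were measured in opposite groups.
Mir200b hairpin: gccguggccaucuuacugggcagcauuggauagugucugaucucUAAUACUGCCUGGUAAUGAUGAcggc
Mir429 hairpin: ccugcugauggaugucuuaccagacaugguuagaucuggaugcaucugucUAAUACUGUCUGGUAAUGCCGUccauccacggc
The shared seed did not go with a shared pattern either. miR-200b and miR-429 both carry AAUACUG and differed in the pools where they were above the floor. miR-200c, with the same seed, was at the floor throughout, as were both AACACUG members (miR-200a and miR-141). The values concerned are 4 to 6 steps above the lowest measurable value, each from 1 or 2 pools.

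As a rule of size, each Tn+ pool was set against the Tn- pool on signal + 1. Of the 7 members, 3 (miR-205, miR-429 and miR-203) were at least 2-fold higher in each Tn+ pool, where 12.0% of all 566 probes were. The other 4 were miR-200b, at least 2-fold lower in each Tn+ pool, where 0.707% of all probes were, and the 3 at the floor. Low values decide most of these counts. With every value under 3 steps raised to 3 steps, miR-205 alone was at least 2-fold higher (8.13% of all probes) and no member was at least 2-fold lower (0.177% of all probes, 1 probe). The median log2 ratio over the 7 members was -0.02, the same as over all 566 probes, since the middle value of both sets is that of a probe at the floor in every pool.

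**Figure D3:**
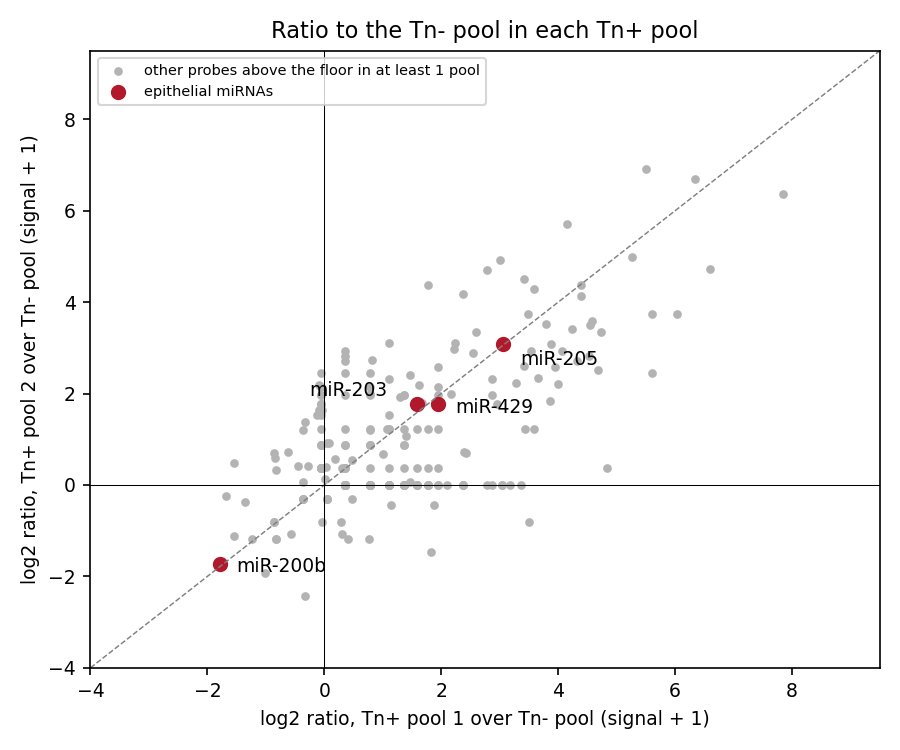
log2 ratio to the Tn- pool on signal + 1, for Tn+ pool 1 (horizontal axis) and Tn+ pool 2 (vertical axis), of the 259 probes that exceeded the floor in any pool, with the 4 measured epithelial miRNAs in red and the dashed line where both pools give the same ratio. The red points lie near that line, miR-205 at 3.06 and 3.09, miR-429 at 1.95 and 1.76, miR-203 at 1.59 and 1.76, and miR-200b at -1.78 and -1.72.

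The difference between Tn+ and Tn- serum was tested on log2(signal + 1) with limma's moderated fit of all 566 probes and Benjamini-Hochberg adjustment. No probe of the panel passed an adjusted p of 0.05 (0% called). An unadjusted p under 0.05 was found for 56 probes with more signal in Tn+ serum (9.89% of the panel), 3 of them members (miR-205, miR-429 and miR-203), and for 7 probes with less (1.24%), of which miR-200b was 1. For miR-205 the log2 ratio was 3.07 (SE 0.154, 95% interval 2.50 to 3.64), with an adjusted limma p of 0.117, the smallest of the panel and shared by 5 probes. By the size of its ratio miR-205 ranked 32nd of the 566 probes. The log2 ratio was 1.86 (SE 0.186) for miR-429 and 1.68 (SE 0.182) for miR-203, with adjusted limma p of 0.214 and 0.224. miR-200b had a log2 ratio of -1.75 (SE 0.157) and an adjusted limma p of 0.205, and since both its Tn+ values are floors, its SE holds no spread of the miRNA. The Tn- pool has no replicate, and the fit assumes that it varies like the Tn+ pools. With 1 residual degree of freedom, a p above 0.05 does not show that the pools were alike.

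Which probes enter the fit, and how low values are handled, decided the call of miR-205. Among the 259 probes with a value above the floor somewhere, limma called 29 (11.2%), all higher in Tn+ serum, and none was a member. The adjusted limma p was 0.0631 for miR-205, and 0.509 to 0.614 for the other 3 measured members. Among the 58 probes with a mean of 10 units or more, 32 (55.2%) were called, all higher in Tn+ serum, and miR-205, the only member with such a mean, was among them with an adjusted p of 0.0469 in limma's fit. The mean is over all 3 pools, and miR-205 passed the filter only through its Tn+ values, with 2.65 units in the Tn- pool. Such a filter favours probes high in Tn+ serum, so this call is no separate evidence of a difference. The log2 ratio of miR-205, 3.07, was close to the median of those 58 probes, 3.17. With values under 3 steps raised to 3 steps, 42 of 566 probes (7.42%) were called, and miR-205 had a log2 ratio of 2.86 and an adjusted limma p of 5.90e-05. In these 3 fits every probe was given the same SE (1.15, 1.34 and 0.603), so that the calls follow the size of the ratio. The SE of 0.154 in the fit of all 566 probes is smaller for the same ratio, and 307 of the probes in that fit are tied at the floor, so its interval is narrow for the size of the data. Over the 10 fits of miR-205 with a p, the adjusted p ranged from 5.90e-05 to 1.

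Because the totals differ, the ratios were also computed after scaling the pools to each other, with the highest scaled floor then set as the floor of every pool. For miR-205 the log2 ratio was 1.65 after median-of-ratios scaling, which removed a 3.18-fold difference between Tn+ and Tn- pools, and 0.82 after scaling to the 100 highest probes, which removed a 6.06-fold difference. Those 100 were the highest by mean over the 3 pools. Only 85 probes exceeded the floor in the Tn- pool, so some of the 100 entered its factor at the floor value. The log2 ratio of miR-205 was 0.11 with equal totals (a 10.4-fold difference) and -0.00182 when each pool was divided by its miR-16 signal (an 11.3-fold difference). These last 2 scalings are not separate checks, since both follow red cell miRNAs. The 4 listed red cell miRNAs, miR-16 among them, held 79.4% and 53.5% of the Tn+ totals and 50.7% of the Tn- total. Restricted to the 58 probes with a mean of 10 units or more, a combination chosen after seeing the data, limma gave miR-205 an adjusted p of 0.305, 0.494, 0.943 and 1 under these 4 scalings. miR-205 was therefore called under none of the 4 scalings. In the same fits limma called 0, 0, 4 and 0 of the 58 probes, so hardly any probe was called.

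miR-429 and miR-203 kept log2 ratios of 0.71 and 0.54 after median-of-ratios scaling. They were 0.01 each after top-100 scaling and 0 under equal totals and miR-16 scaling, where their Tn+ values lay under the common floor. The 0.01 is nearly a ratio of floors too. Under top-100 scaling the common floor, in deposited units, was 7.21 in Tn+ pool 1, above both miRNAs. In Tn+ pool 2 it was 5.94, just under their 6.06 units. For miR-200b the scaled values, log2 ratios of -2.04, -2.16, -2.24 and -2.25 under the 4 scalings, hold no Tn+ measurement. The common floor was the floor of the Tn- pool (1.08 units as deposited) under each scaling, so they set the Tn- signal of 5.89 units against that pool's own floor. They differ only in the weight of the pseudocount.

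**Figure D4:**
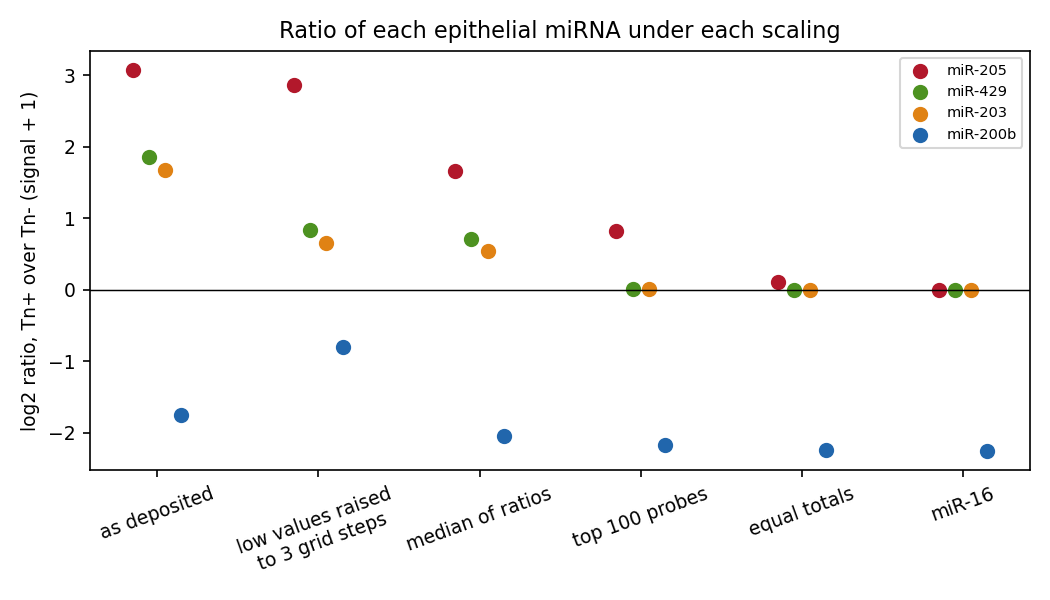
log2 ratio of Tn+ over Tn- serum on signal + 1 for the 4 measured epithelial miRNAs, as deposited, with low values raised to 3 grid steps, and under the 4 scalings. miR-205 goes down to 0.11 with equal totals and -0.00182 with miR-16 scaling, miR-429 and miR-203 reach 0 there, and miR-200b lies below 0 throughout, where its 4 scaled values set the Tn- signal against the Tn- floor alone.

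As a share of all signal, the members above the floor held 0.0702% in Tn+ pool 1 and 0.132% in Tn+ pool 2, against 0.203% in the Tn- pool, although their summed signal was 41.7 and 42.1 units in the Tn+ pools, against 8.54 units in the Tn- pool. The Tn- pool was thus lowest of the 3 by signal and highest by share. Within the Tn- sum miR-200b held 5.89 units and miR-205 the other 2.65.

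Red cell miRNAs were higher in the same pools. All 4 of the list (miR-451, miR-144, miR-486 and miR-16) passed the rule of size, with both Tn+ pools above the Tn- pool, and none of them was past limma's adjusted threshold over all probes. Their summed signal was 47188 and 17105 units in the Tn+ pools, against 2131 units in the Tn- pool, which is 79.4%, 53.5% and 50.7% of the total. Of 4 platelet, myeloid and endothelial probes, miR-126-3p and miR-142-3p were at least 2-fold higher in each Tn+ pool and miR-223 and miR-142-5p were not, with sums of 920.0 and 476 units against 287 units. For miR-122 of hepatocytes the Tn+ pools had 47.3 and 22.4 units, and Tn- serum only the floor value. The part of red cell or other cell RNA in the values of the epithelial miRNAs was not tested, and in serum more releasing cells and more release per cell cannot be told apart.

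Other miRNAs enriched in epithelia were hardly measured. Of 13 listed, 12 were on the panel, and 8 of these (miR-182, miR-183, miR-96, miR-192, miR-194, miR-34a, miR-34c and miR-184) were at the floor in every pool. Over all 566 probes the share at the floor in every pool was 54.2%. None of the 12 was at least 2-fold higher or lower in both Tn+ pools, where 12.0% and 0.707% of all probes were. No probe of the panel passed limma over all probes, so none of the 12 did. miR-375, of endocrine and gut epithelium, had 6.15 and 22.4 units in the Tn+ pools, against 8.04 units in the Tn- pool, so that the Tn- value lay between the Tn+ values. miR-31 was above the floor only in Tn+ pool 2 (2.79 units), as was miR-34b-5p (1.70 units). miR-34b-3p had 1.67 units in Tn+ pool 1 and the floor in Tn+ pool 2, against 1.58 units in the Tn- pool. The median log2 ratio of the 12 was -0.02, the same as over all probes.

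The list of miRNAs of mesenchymal cells or of the epithelial-to-mesenchymal transition was at the floor for the most part too. Of 11 probes, 7 (miR-10b, miR-155, miR-221, miR-222, miR-214, miR-143 and miR-9) were at the floor in every pool, where 54.2% of all probes were. miR-21, which is not confined to mesenchymal cells, was the only one at least 2-fold higher in each Tn+ pool, with 182 and 149 units against 3.73 units in the Tn- pool and an adjusted limma p of 0.117. miR-199a-3p, of fibroblasts and platelets, had 7.94 units in Tn+ pool 1 and the floor in Tn+ pool 2, against 10.2 units in the Tn- pool. miR-145, of smooth muscle, had 1.67 and 2.79 units in the Tn+ pools and the floor in the Tn- pool. miR-199a-5p was above the floor only in Tn+ pool 1 (2.57 units). By the rule of size, 12.0% of all probes were at least 2-fold higher in each Tn+ pool. No probe of the panel passed limma over all probes, so none of the 11 did, and their median log2 ratio was -0.02.

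For each measured member, the 3 probes nearest to it were those with the smallest largest difference in log2(signal + 1) over the 3 pools. Nearest to miR-205 was miR-328, with 33.0 and 42.0 units in the Tn+ pools, against 4.81 units in the Tn- pool, at most 0.67 away on the log2 scale. let-7c and miR-122 came next at 0.81, tied with 4 others that are at the floor in the Tn- pool. miR-30b, at 7.05 and 7.14 units in the Tn+ pools against the floor in Tn- serum, was nearest to miR-429 (0.21), followed by miR-203 (0.36) and miR-670 (0.39). miR-504 and miR-582-5p, each with 4.36 and 7.14 units against the floor, were nearest to miR-203 (0.22). miR-30b and miR-429 came next and were tied at 0.36. The probes nearest to miR-200b were miR-666-5p, with the floor and 1.70 units in the Tn+ pools, against 4.81 units in the Tn- pool (0.37), and then miR-1939 and miR-743b-3p, at 0.54 and tied with 1 other. With 3 pools, many probes of similar level share a pattern by their values at the floor.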

How the data were processed

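Per the labels' protocols, serum was pooled within each Tn status, RNA from 200 µL of serum was eluted in 20 µL, and roughly 30 ng of it was incubated for 16.5 h with a panel stated to cover 527 miRNAs. The deposited table holds the authors' normalized signal per probe and pool, normalized in NanoString's nCounter Advanced Analysis Software as the series' design text states. The submitters' processing notes also name R 4.4. How background was removed, which probes set the scale and what sets the floor is not given in the sources used here. Of 1698 values, 1698 equalled those of a second deposited table. All values of up to 60 units above the floor (200, 126 and 78 per pool) lay within 0.05 steps of a regular grid. Whether counts were subtracted, and how many, is not known, so no count model or counting interval was used.

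The fit used limma 3.58.1 in R 4.3.3 on log2(signal + 1) (Tn+ minus Tn-, 2 pools against 1, no covariate), with p-values adjusted over all probes tested. The code was tested on simulated data. Other steps used Python 3.11.15 with pandas 2.3.3. Alternatives were the pseudocount, filters, floor, 4 scalings and each Tn+ pool left out. Scaled values were raised to the highest scaled floor, which leaves ties without spread, so scaled fits over all probes gave no p. The named miRNAs are the 7 members, the 3 nearest probes of each measured one, and up to 4 measured miRNAs of each of 5 marker lists. miRNAs at the floor, and the other probes above it in the Tn- pool alone, were named after their values were seen. Members and lists were chosen with earlier results of these data known.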

Additional observations from a re-analysis of the deposited data

How the results depend on the processing

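miR-205, miR-429 and miR-203 had a positive and miR-200b a negative log2 ratio as deposited, with either other pseudocount, with the filter to 259 probes and with low values raised, except that the filter to a mean of 10 units or more held only miR-205. Leaving out either Tn+ pool, which gives no test, the ratio ranged from 3.06 to 3.09 for miR-205, from 1.76 to 1.95 for miR-429, from 1.59 to 1.76 for miR-203 and from -1.78 to -1.72 for miR-200b, with 3 members higher and 1 lower. miR-205 passed the adjusted limma threshold in the fit to the 58 probes (3.07) and with low values raised (2.86), and in no other fit. Its place among the 58 probes rests on its Tn+ values alone, and its call with low values raised rests on an SE shared by all probes. Under median-of-ratios, top-100, equal-total and miR-16 scaling its ratio was 1.65, 0.82, 0.11 and -0.00182, the last also when fitted to the 58 probes. For miR-429 the 4 values were 0.71, 0.0114, 0 and 0, for miR-203 0.54, 0.0114, 0 and 0, and for miR-200b -2.04, -2.16, -2.24 and -2.25. The scaled values of miR-200b set its Tn- signal against the floor of the Tn- pool and say nothing of Tn+ serum. Members at least 2-fold higher numbered 1 with a pseudocount of 5, low values raised, the filter to a mean of 10 or median-of-ratios scaling, and 0 under the other 3 scalings. The count of members lower was 0 with a pseudocount of 5, low values raised or the filter to a mean of 10, and 1 otherwise. Probes called by limma numbered 0 with each pseudocount, 29 and 32 with the filters and 42 with low values raised. The scaled ratios differ by the factors removed, and the cause of the unequal totals was not tested. No paired analysis was made, because the labels give only sample numbers, which do not show that any pools form a pair. No alternative was computed for miR-200a, miR-200c and miR-141, whose ratios as deposited (-0.06 and 0.01 in Tn+ pools 1 and 2) are ratios of floors. Signal within a few steps of the floor limits miR-200b, miR-429, miR-203 and the Tn- value of miR-205.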
